A study of Mus musculus with 6 samples.

Results

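The p53 pathway was followed in mouse embryonic fibroblasts (MEFs) that overexpress Fbxl10, through 37 named genes: the p53 family, the Mdm regulators, and p53 targets in growth arrest, DNA repair, cell death at the membrane, stress signalling and metabolism. CDK inhibitors and the Bcl2 family were left out of the list. Genes were placed on the list by function, with earlier results of these data known. Of the 37 genes, 35 were measured among 19936 genes of the array, and Trp53 and Fdxr were not analysed here. Fbxl10, now named Kdm2b, is a histone demethylase with a zinc finger that binds unmethylated CpG dinucleotides.

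The HA-Fbxl10 cells were clones of a Tet-off MEF line, a stable line carrying a tetracycline-controlled transactivator, that had received an HA-tagged Fbxl10 cDNA together with a hygromycin resistance plasmid and were picked for HA-Fbxl10 expression. The control cells were the same Tet-off line without transfection. Each group gave 3 RNA samples, hybridised to 1 Affymetrix array each. The RNA samples are described as independent, without a statement on whether they stem from different clones or cultures. The p-values therefore rest on the spread between RNA samples, part or all of which may be technical. No empty-vector group was among the samples, so transfection, drug selection and clone choice cannot be told apart from Fbxl10 itself. The labels do not say whether p53 is intact in this line, and no DNA-damaging treatment is named.

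The protein p53 is a transcription factor that is kept scarce by Mdm2, a ubiquitin ligase, and held inactive by its relative Mdm4. DNA damage and other stresses release it, and it then switches on genes for cell cycle arrest, repair, death and metabolic restraint, among them Mdm2 itself, which closes a feedback loop. Many of these genes also answer to other factors, so their basal levels are set by more than p53.

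The 6 arrays had log2 medians of 4.69 to 4.79, and Pearson correlations over all probe sets of 0.994 to 0.996 between arrays of a group and 0.990 to 0.992 between arrays of different groups. Kdm2b had log2 levels of 9.77, 9.75 and 9.58 in HA-Fbxl10 cells, against 7.38, 7.45 and 7.28 in control cells, a 5.03-fold rise, in the direction of the label. Of 10 fibroblast markers 9 were measured and 8 lay above the median level of all genes (5.36), with Thy1 below it. Their mean log2 level was 9.95 to 10.1 on HA-Fbxl10 arrays and 10.2 on control arrays, and Col3a1, S100a4 and Pdgfra fell (log2 fold changes -0.79, -0.64 and -0.30). Their part in the changes below was not tested. Of 10 epithelial markers 8 lay below that median, Epcam and Cdh1 among them, and 0 passed limma's test, with 1 (Krt14) at an unadjusted p under 0.05. Among blood and macrophage markers 0 of 5 measured passed (0 at an unadjusted p under 0.05), and of 4 endothelial markers only Kdr did, which was higher. Fewer cells of a type and less RNA per cell cannot be told apart in such bulk samples. Precision is limited by having 3 arrays a group.

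Genes of the pathway moved in both directions in HA-Fbxl10 cells, with the larger changes downward. Among 35 members there were 11 falls and 7 rises, and 17 genes stayed short of the threshold. The falls were led by Perp, a membrane protein gene of p53-dependent death, and Sesn1, which restrains growth signalling under stress. The rises were led by Polk, a DNA polymerase that copies past lesions, and Mdm4, the inhibitor of p53. The test was limma with Benjamini-Hochberg adjustment over all 19936 genes, at an adjusted p of 0.05. Over the whole table the same test called 21.1% of genes, 10.5% higher and 10.6% lower. Among members 20% were higher and 31.4% lower. Levels bear on these shares, since 30 of the 35 members lay above the median level of all genes. Of genes above that level, 37.0% were called, 19.2% higher and 17.8% lower. Of the 30 members there, 23.3% were higher and 33.3% lower. The median log2 fold change of the 35 members was -0.10, against -0.00427 over all genes, which were of any level. The members' median depended on processing. It was -0.0504 after quantile normalisation and -0.0219 after the median change of neighbouring genes was removed. No test of the list was made. Changes of at least 2-fold were rare, with 2 members (Perp and Sesn1) and 0.958% of all genes. Without HA-Fbxl10 replicate 1, 9 members were lower and 4 higher, while 3308 genes in place of 4208 were called over the whole table.

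**Figure D1:**
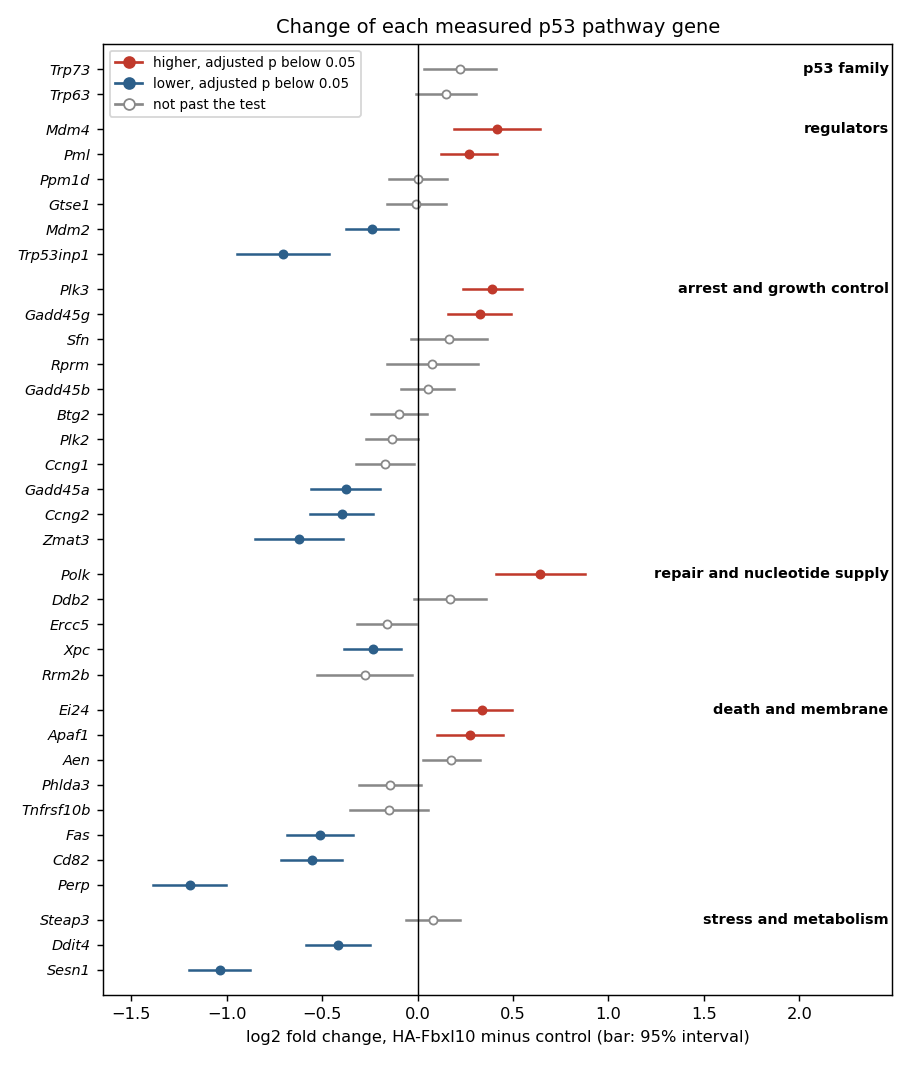
Log2 fold change of each of the 35 measured p53 pathway genes, HA-Fbxl10 minus control, with its 95% interval from limma, grouped by role. The points run from -1.19 (Perp) to 0.64 (Polk), and filled points mark the 11 genes that fell and the 7 that rose.

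**Figure D2:**
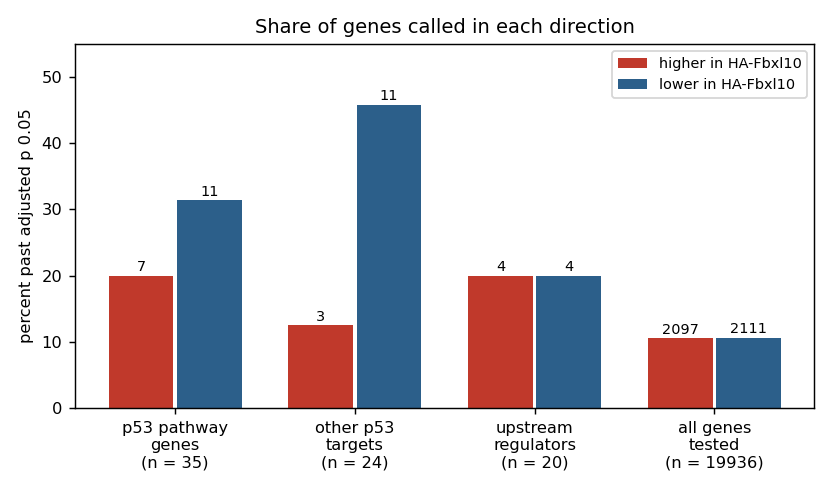
Percent of genes past an adjusted p of 0.05 in each direction, with the number of genes above each bar. Among the 35 p53 pathway genes 31.4% were lower and 20% higher, against 10.6% and 10.5% of all 19936 genes. Genes above the median level, which are not drawn, had 17.8% lower and 19.2% higher.

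The DNA just before the start of these genes was read in the RefSeq promoter windows of GRCm38.p6, which hold 250 bases before and 50 after each annotated start. Windows were found for 27 of the 35 measured members, 39 windows in all since some genes have several starts. The sequence was searched for the p53 half-site by its consensus with no mismatch. That consensus reads the same on both strands. It was present in 11 of 39 member windows (28.2%), against 8.36% of all 32851 windows. These 11 windows belong to 10 genes, since the match of Aen lies in both of its overlapping windows. Among windows with at least 20 CG dinucleotides, a limit set with the members' counts known, it was in 7 of 21 member windows, against 5.26% of 8701. The full site, a pair of half-sites with at most 13 bases between them, was in 0 member windows and in 0.0731% of all windows. Members were listed for their part in the p53 pathway, and the windows compared include genes outside the 19936 tested, not matched for level. The shares therefore cannot be read as a result about these members. A match describes letters only, and known p53 sites of these genes often lie outside such windows. The matches are shown because they come from genes of each outcome, with 10 bases on either side and the half-site in capitals, 5′ to 3′ along the gene. Those of Sesn1, Mdm2 and Gadd45a belong to genes that were lower in HA-Fbxl10 cells.
Sesn1 (chr10:41887256-41887285, plus strand): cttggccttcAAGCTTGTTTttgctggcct
Mdm2 (chr10:117710925-117710954, minus strand): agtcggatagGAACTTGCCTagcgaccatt
Gadd45a (chr6:67037428-67037457, minus strand): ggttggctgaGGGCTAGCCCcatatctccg
Those of Polk, Pml and Ei24 belong to genes that were higher.
Polk (chr13:96519399-96519428, minus strand): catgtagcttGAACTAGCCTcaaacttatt
Pml (chr9:58249911-58249940, minus strand): cccgcatgccGGGCTTGTTTacttgcttgt
Ei24 (chr9:36797325-36797354, minus strand): cgtgcggcccGGGCATGCCCagtgtgggcg
Those of Ccng1, Ppm1d, Aen and Gtse1 belong to genes that did not pass the test, and the last 2 lie just after an annotated start.
Ccng1 (chr11:40755452-40755481, minus strand): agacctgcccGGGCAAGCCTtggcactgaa
Ppm1d (chr11:85311112-85311141, plus strand): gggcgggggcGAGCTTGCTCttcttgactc
Aen (chr7:78895927-78895956, plus strand): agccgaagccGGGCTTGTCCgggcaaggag
Gtse1 (chr15:85859945-85859974, plus strand): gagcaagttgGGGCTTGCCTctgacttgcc
The Mdm2 match begins 186 bases before the start and the Ei24 match 10 bases before it. Half-sites were thus found in 3 of 7 matched members that were lower, 3 of 7 that were higher and 4 of 13 that did not pass.

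The p53 relatives themselves did not pass the test. Trp63, best known for its role in epithelia, had log2 levels of 4.97, 5.05 and 4.98 in HA-Fbxl10 cells, against 4.88, 4.75 and 4.92 in control cells. The groups did not overlap, but the difference of 0.15 (95% interval -0.01 to 0.30) had an adjusted p of 0.178 in limma. Trp73, which acts in development and in damage responses, had levels of 5.32, 5.24 and 5.17 in HA-Fbxl10 cells, against 5.18, 4.91 and 4.98 in control cells. Its difference was 0.22 (95% interval 0.03 to 0.41), with a limma adjusted p of 0.0987, and without control replicate 1 it reached 0.30 with an adjusted p of 0.0361. Both genes lay below the median level of all genes on every array, where signal and background are not told apart.

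Of the 6 regulators measured, 2 fell, 2 rose and 2 did not pass. Mdm2, which marks p53 for degradation and is itself a p53 target, had log2 levels of 8.29, 8.33 and 8.34 in HA-Fbxl10 cells, against 8.57, 8.51 and 8.60 in control cells. All HA-Fbxl10 arrays lay below all control arrays, a difference of -0.24 ± 0.06 (SE, limma adjusted p = 0.0212). Mdm4 had levels of 7.73, 7.67 and 7.52 in HA-Fbxl10 cells, against 7.25, 7.02 and 7.40 in control cells. Here the HA-Fbxl10 arrays were the higher ones, by 0.42 ± 0.10 (SE, adjusted p = 0.0161), and control replicate 2 was the lowest array. Both inhibitors of p53 thus differed between the groups, in opposite directions and by 1.18-fold and 1.33-fold. Either call was close to the threshold. That of Mdm2 ended without any HA-Fbxl10 array or without control replicate 1 or 3 (adjusted p of 0.0529 to 0.0758). It also ended when array medians were subtracted (-0.20, adjusted p = 0.0849). That of Mdm4 ended without HA-Fbxl10 replicate 1 (adjusted p = 0.0647) or 2 (0.0513).

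Trp53inp1, a stress-induced p53 target whose protein promotes p53 activity and autophagy, fell more than either Mdm gene. Its log2 levels were 5.62, 5.24 and 5.45 in HA-Fbxl10 cells, against 6.13, 6.01 and 6.28 in control cells, a 1.63-fold fall with a log2 fold change of -0.70 ± 0.11 (SE, limma adjusted p = 0.00156). Every control array lay above every HA-Fbxl10 array, and HA-Fbxl10 replicate 2 was the lowest. Pml, the scaffold of nuclear bodies in which p53 is modified, had levels of 7.53, 7.42 and 7.41 in HA-Fbxl10 cells, against 7.24, 7.15 and 7.16 in control cells. It rose by 0.27 ± 0.07 (adjusted p = 0.017), a call that ended without HA-Fbxl10 replicate 1 (0.0706) or control replicate 2 (0.0549). The phosphatase gene Ppm1d, which turns p53 signalling off, differed by 0.00 (95% interval -0.15 to 0.15). Gtse1, whose product moves p53 out of the nucleus, differed by -0.01 (95% interval -0.16 to 0.15).

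**Figure D3:**
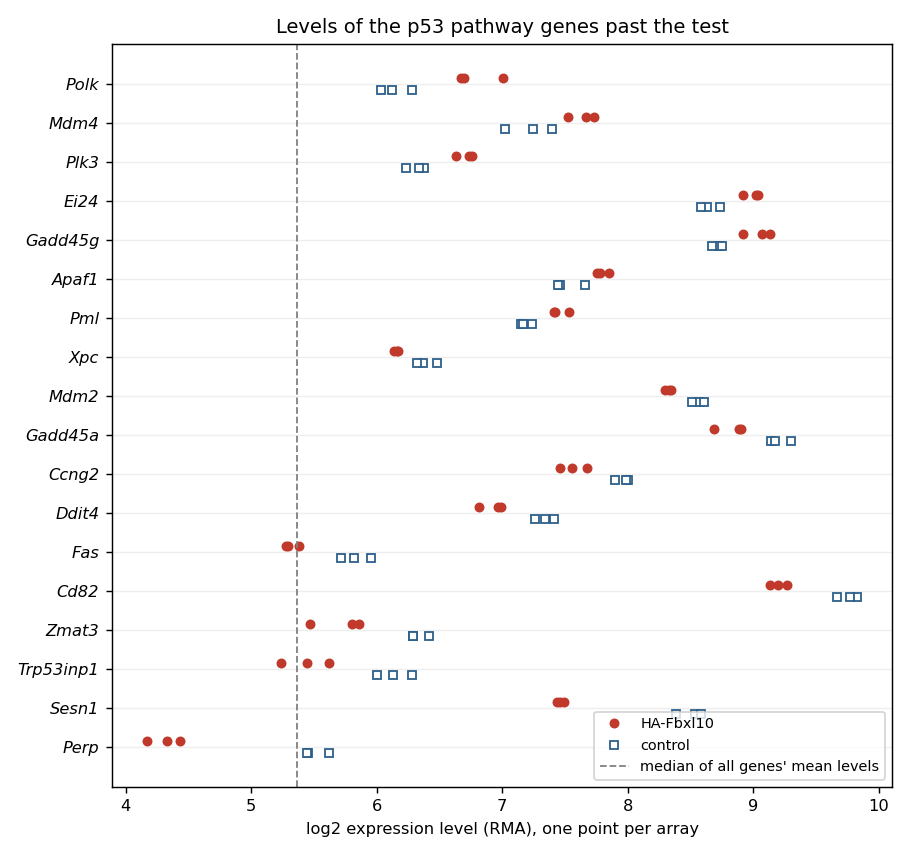
Log2 expression level of the 18 p53 pathway genes past the test, 1 point per array, with HA-Fbxl10 arrays (filled circles) drawn above control arrays (open squares) for each gene. The groups overlap for none of these 18 genes, and Perp, Fas and Trp53inp1 lie near or below the median of all genes (5.36, dashed line) in HA-Fbxl10 cells.

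Of 11 genes of arrest and growth control, 3 fell, 2 rose and 6 did not pass. Paralogues within a family did not all get the same call, and differences between paralogues were not tested. Zmat3, an RNA-binding zinc finger gene and p53 target, fell the most. Its log2 levels were 5.47, 5.81 and 5.86 in HA-Fbxl10 cells, against 6.29, 6.29 and 6.42 in control cells, and the change was -0.62 ± 0.10 (SE, limma adjusted p = 0.00242), with HA-Fbxl10 replicate 1 the lowest array. Ccng2, an unusual cyclin linked to withdrawal from the cell cycle, had levels of 7.67, 7.56 and 7.46 in HA-Fbxl10 cells, against 8.003, 7.98 and 7.90 in control cells. It fell by 0.40 ± 0.07 (SE, adjusted p = 0.00429), and the groups were apart. Ccng1, the classical p53-induced cyclin G, lay lower on all HA-Fbxl10 arrays, but its difference of -0.17 (95% interval -0.32 to -0.02) did not pass (adjusted p = 0.116).

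The Gadd45 genes encode small stress-induced proteins of growth arrest and repair. Gadd45a, the member most tied to p53, had log2 levels of 8.90, 8.69 and 8.89 in HA-Fbxl10 cells, against 9.14, 9.17 and 9.30 in control cells. It fell by 0.38 ± 0.08 (SE, limma adjusted p = 0.00867), a call that ended when the median change of its chromosome was removed (-0.25, adjusted p = 0.061). Gadd45g had levels of 9.07, 9.14 and 8.92 in HA-Fbxl10 cells, against 8.73, 8.75 and 8.67 in control cells. It rose by 0.33 ± 0.07 (adjusted p = 0.0116), a call that also ended with its chromosome's median change removed (0.12, adjusted p = 0.332). Gadd45b differed by 0.05 (95% interval -0.08 to 0.19). The 3 paralogues therefore included 1 fall, 1 rise and 1 gene that did not pass.

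The polo-like kinase genes also differed in call. Plk3, a stress-responsive kinase gene, had log2 levels of 6.73, 6.76 and 6.63 in HA-Fbxl10 cells, against 6.38, 6.24 and 6.34 in control cells, and it rose by 0.39 ± 0.07 (SE, limma adjusted p = 0.00339). Plk2 was lower on all 3 HA-Fbxl10 arrays without passing, at -0.13 (95% interval -0.27 to 0.00). With a variance trend in the model, Plk2 and Ccng1 passed (adjusted p of 0.0119 and 0.0233). The antiproliferative gene Btg2 differed by -0.10 (95% interval -0.24 to 0.05). Sfn, which encodes the arrest protein 14-3-3 sigma, and Rprm, a gene of G2 arrest, lay below the median level on all arrays and differed by 0.17 and 0.08. Both probe sets of Sfn gave like values (0.17 and 0.18).

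Among 5 genes of repair and nucleotide supply, Polk rose, Xpc fell and 3 did not pass. Polk had log2 levels of 6.67, 7.01 and 6.69 in HA-Fbxl10 cells, against 6.04, 6.12 and 6.28 in control cells. The groups were separate and HA-Fbxl10 replicate 2 was the highest array, giving a 1.56-fold rise with a log2 fold change of 0.64 ± 0.10 (SE, limma adjusted p = 0.00201). Xpc, which recognises distorted DNA in nucleotide excision repair, had levels of 6.17, 6.14 and 6.16 in HA-Fbxl10 cells, against 6.37, 6.32 and 6.48 in control cells, a smaller difference of -0.23 ± 0.07 (adjusted p = 0.0333). Its call ended without any 1 array other than control replicate 2 (adjusted p of 0.0742 to 0.0961), with array medians subtracted (-0.20, 0.104) and with a robust variance trend (0.0506). Ddb2, which works beside Xpc, pointed the other way at 0.17 (95% interval -0.02 to 0.36). Ercc5, the nuclease that cuts the damaged strand, was at -0.16 (95% interval -0.32 to -0.01). Rrm2b, the p53-induced subunit of ribonucleotide reductase, was at -0.28 (95% interval -0.52 to -0.03). Its HA-Fbxl10 replicate 2 (6.78) lay within the control range, and without that array the difference was -0.40 with an adjusted p of 0.015.

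Of 8 death and membrane genes, 3 fell (Perp, Cd82 and Fas), 2 rose and 3 did not pass. Perp, a tetraspan protein of the plasma membrane and of desmosomes, had log2 levels of 4.17, 4.43 and 4.33 in HA-Fbxl10 cells, against 5.45, 5.45 and 5.62 in control cells. The groups stood more than 1 log2 unit apart, a 2.29-fold fall with a log2 fold change of -1.19 ± 0.08 (SE, limma adjusted p = 2.26e-05). On HA-Fbxl10 arrays it was dimmer than the median gene, which leaves the size of the fall uncertain. Perp is also an epithelial gene. The 10 epithelial markers averaged 4.44 to 4.56 on HA-Fbxl10 arrays and 4.49 to 4.59 on control arrays, and 0 of them passed the test. Only 2 of these markers lay above the median level of all genes and 3 lay below the lower quartile, where a fall could hardly show. Whether epithelial content bears on the fall of Perp was not tested.

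Cd82, a tetraspanin gene that curbs motility, had log2 levels of 9.20, 9.13 and 9.27 in HA-Fbxl10 cells, against 9.67, 9.83 and 9.77 in control cells. It fell by 0.55 ± 0.07 (SE, limma adjusted p = 0.000591). Fas, the death receptor gene, had levels of 5.30, 5.28 and 5.38 in HA-Fbxl10 cells, against 5.95, 5.72 and 5.82 in control cells. All control arrays exceeded all HA-Fbxl10 arrays, a difference of -0.51 ± 0.08 (adjusted p = 0.00135), and 2 HA-Fbxl10 values lay under the median level of all genes. The other death receptor gene of the list, Tnfrsf10b, was at -0.15 (95% interval -0.35 to 0.06) with overlapping groups.

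The 2 rises among the death and membrane genes were those of Ei24 and Apaf1. Ei24, which encodes a p53-induced protein of the endoplasmic reticulum, had log2 levels of 8.91, 9.02 and 9.04 in HA-Fbxl10 cells, against 8.63, 8.59 and 8.73 in control cells, a rise of 0.34 ± 0.07 (SE, limma adjusted p = 0.00691). Apaf1, the core of the apoptosome that activates caspases, had levels of 7.78, 7.85 and 7.75 in HA-Fbxl10 cells, against 7.46, 7.44 and 7.66 in control cells. It rose by 0.27 ± 0.08 (adjusted p = 0.031), a call that ended without any 1 array other than control replicate 3 (0.0632 to 0.11). The nuclease gene Aen was higher on all HA-Fbxl10 arrays at 0.18 (95% interval 0.03 to 0.33) and did not pass. Phlda3, a p53 target that restrains Akt, was lower on all of them at -0.14 (95% interval -0.31 to 0.02) and did not pass either.

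Of the 3 stress and metabolism genes measured, the pair that restrains mTORC1 signalling fell. Sesn1 had log2 levels of 7.49, 7.44 and 7.46 in HA-Fbxl10 cells, against 8.53, 8.38 and 8.59 in control cells. The arrays of each group lay close together and far from the other group, a 2.05-fold fall with a log2 fold change of -1.04 ± 0.07 (SE, limma adjusted p = 1.89e-05). Ddit4, induced by p53, by hypoxia and by glucocorticoids, had levels of 6.97, 6.81 and 6.99 in HA-Fbxl10 cells, against 7.26, 7.41 and 7.34 in control cells, a fall with a log2 fold change of -0.42 ± 0.07 (adjusted p = 0.0035). Steap3, a metalloreductase gene of iron uptake, was at 0.08 (95% interval -0.06 to 0.22).

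Across the list the groups did not overlap for 25 of 35 members, 15 lower and 10 higher, against 18.1% of all genes lower and 17.9% higher without overlap. Those shares are over genes of any level, while 30 of the 35 members lay above the median level. No such share was taken for genes above that level, so an excess among members cannot be judged. The 18 called members were all among these 25. The other 7 were Trp63, Aen and Steap3 on the higher side and Plk2, Ccng1, Phlda3 and Ercc5 on the lower side. Of the 17 members that did not pass, 5 had an unadjusted p under 0.05 in limma. Called genes included, 23 of the 35 members had such a p, and 6245 of all 19936 genes. That count too was not taken for genes above the median level. For the 17 members that did not pass, the widest bound of the 95% intervals was 0.52 in size on the log2 scale.

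Changes shared by neighbouring genes were known from an earlier analysis of these arrays, and the median change around a gene differed between members. The values were fitted again after the running median change of 31 neighbouring expressed genes had been taken from each expressed gene, expressed meaning above the median level. Of the 18 called members 13 kept their call. Over the whole table the number of called genes went from 4208 to 3136, so lost calls were not particular to members. Ei24 went to 0.05 (adjusted p = 0.696) and Pml to 0.04 (0.749), both on chromosome 9, whose expressed genes had a median change of 0.22. Gadd45g on chromosome 13 (median 0.20) went to 0.09 (0.493), and Xpc on chromosome 6 (median -0.13) to -0.02 (0.867). Mdm2 on chromosome 10 (median -0.11) went to -0.16 (0.095). Polk on chromosome 13 and Zmat3 on chromosome 3 (median -0.23) stayed past the threshold with smaller changes, 0.38 and -0.34. The other members that kept their calls were Sesn1 (-0.93), Trp53inp1 (-0.71), Cd82 (-0.61), Ccng2 (-0.52), Plk3 (0.50), Fas (-0.46), Mdm4 (0.41), Ddit4 (-0.33), Gadd45a (-0.28, adjusted p = 0.0485) and Apaf1 (0.25). Perp lay below the median level and was left as measured. In the same fit Plk2 fell (-0.28, adjusted p = 0.0167) and Gadd45b rose (0.23, 0.0366). Whether a shared regional change sets the values of these genes was not tested.

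**Figure D4:**
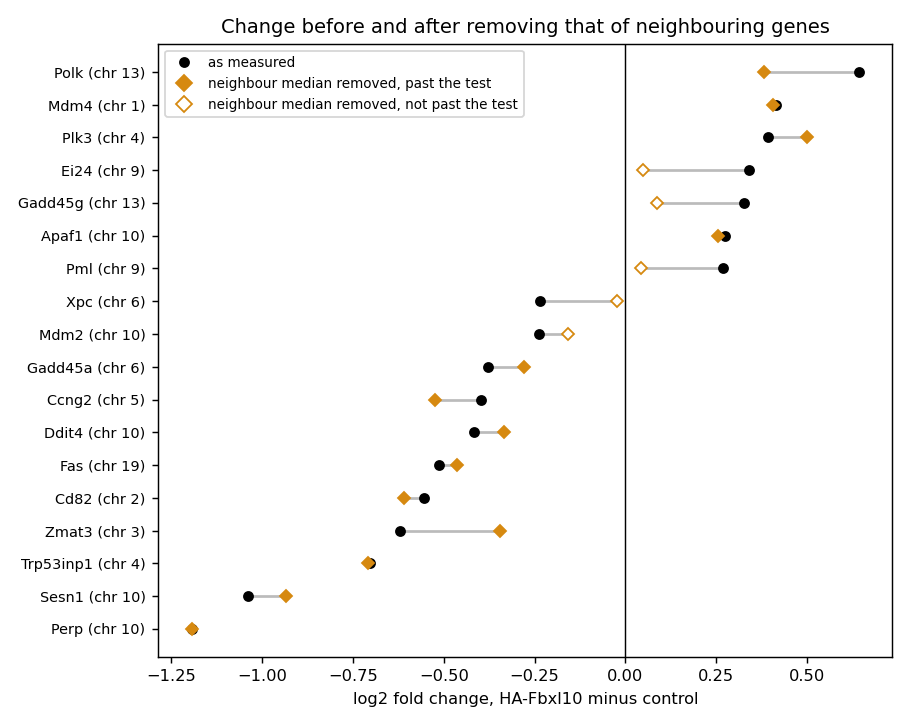
Log2 fold change of the 18 called p53 pathway genes as measured (black circles) and after the running median of 31 neighbouring expressed genes was removed (diamonds, filled where the gene stayed past an adjusted p of 0.05). Ei24, Pml, Gadd45g, Xpc and Mdm2 lose their call, while Perp is unchanged because it was left as measured.

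The promoter windows were also counted for CG dinucleotides, the letters that the zinc finger of Kdm2b binds when they are not methylated. Taking each gene's window with most CG, members had a median of 21 per 300 bases, against 8 over the 27025 genes of the table. Those genes include some outside the 19936 tested and were not matched for level, while 30 of the 35 measured members lay above the median level. The difference therefore cannot be read as a trait of p53 pathway genes. The median was 21 for the 7 matched members that were lower (range 14 to 35), 21 for the 7 that were higher (9 to 46) and 24 for the 13 that did not pass (4 to 39). The ranges of the 3 sets overlapped. The 250 bases before the start are shown for the matched members with the largest falls and rises, in the window of each gene with most CG, with CG in capitals. Sesn1, Cd82 and Fas fell.
Sesn1 (chr10:41887189-41887438, plus strand): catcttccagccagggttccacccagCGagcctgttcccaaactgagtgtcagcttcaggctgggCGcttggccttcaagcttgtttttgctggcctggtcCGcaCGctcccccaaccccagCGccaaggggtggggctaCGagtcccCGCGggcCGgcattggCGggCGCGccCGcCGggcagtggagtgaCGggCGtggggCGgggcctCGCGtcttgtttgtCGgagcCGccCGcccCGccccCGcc
Cd82 (chr2:93462951-93463200, minus strand): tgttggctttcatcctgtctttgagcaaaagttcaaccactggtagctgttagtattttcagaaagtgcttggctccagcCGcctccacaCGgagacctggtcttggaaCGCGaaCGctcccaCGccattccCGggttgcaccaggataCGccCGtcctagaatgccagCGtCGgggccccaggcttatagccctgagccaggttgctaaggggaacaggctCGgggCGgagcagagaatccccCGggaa
Fas (chr19:34290409-34290658, plus strand): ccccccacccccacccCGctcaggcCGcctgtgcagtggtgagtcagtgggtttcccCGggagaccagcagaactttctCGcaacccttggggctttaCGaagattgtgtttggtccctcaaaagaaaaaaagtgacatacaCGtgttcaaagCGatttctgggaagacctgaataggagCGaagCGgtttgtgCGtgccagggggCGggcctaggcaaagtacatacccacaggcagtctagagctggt
Polk, Mdm4 and Plk3 rose.
Polk (chr13:96542580-96542829, minus strand): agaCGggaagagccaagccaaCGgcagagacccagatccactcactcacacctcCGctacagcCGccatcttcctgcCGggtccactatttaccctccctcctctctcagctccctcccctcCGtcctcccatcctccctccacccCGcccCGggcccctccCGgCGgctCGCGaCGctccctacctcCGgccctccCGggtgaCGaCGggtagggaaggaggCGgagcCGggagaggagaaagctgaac
Mdm4 (chr1:133025417-133025666, minus strand): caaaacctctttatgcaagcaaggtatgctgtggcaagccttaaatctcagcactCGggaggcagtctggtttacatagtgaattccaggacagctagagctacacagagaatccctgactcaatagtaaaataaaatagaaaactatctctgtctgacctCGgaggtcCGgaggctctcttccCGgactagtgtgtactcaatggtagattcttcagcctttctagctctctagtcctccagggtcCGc
Plk3 (chr4:117133964-117134213, minus strand): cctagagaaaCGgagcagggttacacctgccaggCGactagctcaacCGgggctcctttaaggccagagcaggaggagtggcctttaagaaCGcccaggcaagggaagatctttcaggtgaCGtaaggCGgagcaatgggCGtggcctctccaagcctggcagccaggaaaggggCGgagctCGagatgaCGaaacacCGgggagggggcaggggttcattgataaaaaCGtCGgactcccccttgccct
The printed stretches hold 24, 14 and 11 CG for Sesn1, Cd82 and Fas, and 19, 5 and 13 for Polk, Mdm4 and Plk3. The Sesn1 stretch contains the half-site given above, in lower case here.

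Further p53 targets outside the list, among them Bcl2 family genes, were counted beside it. They were chosen with earlier results of these data known, so their shares may reflect that choice. Of 30 such genes 24 were measured, with 11 falls, 3 rises and 10 genes short of the threshold, and a median log2 fold change of -0.12. The shares were 45.8% lower and 12.5% higher, against the 10.6% and 10.5% of all genes. Of the 24 genes 19 lay above the median level, where 17.8% of all genes were lower and 19.2% higher. The largest change was that of Rap2b, a small GTPase gene, at -0.80 ± 0.06 (SE, limma adjusted p = 4.23e-05). Eda2r, a receptor gene of the X chromosome, fell by 0.74 ± 0.11 (adjusted p = 0.00164). All 3 of its HA-Fbxl10 levels were under the lower quartile (3.75) and its control levels under the median of all genes, which leaves the size of that fall uncertain. Sesn2, the paralogue of Sesn1, had log2 levels of 6.61, 6.47 and 6.49 in HA-Fbxl10 cells, against 7.27, 7.20 and 7.27 in control cells. It fell by 0.72 ± 0.07 (adjusted p = 0.000105), so both sestrin genes of these lists were lower. Ak1, an adenylate kinase gene, fell by 0.72 ± 0.06 (adjusted p = 7.91e-05). The death genes Bbc3 and Pmaip1 differed by -0.10 and 0.01 and did not pass. Cdkn1a shares its probe set with another gene and was not analysed here. Without the neighbour median, Rap2b moved to -0.40 and stayed past the threshold (adjusted p = 0.00253).

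Genes that act on p53, also chosen with earlier results of these data known, changed both ways. Of 20 measured, 4 were higher, 4 were lower and 12 stayed short of the threshold, which is 20% in each direction against 10.5% and 10.6% of all genes. All 20 lay above the median level on average, where 19.2% of genes were higher and 17.8% lower, so these shares were near that background. Without HA-Fbxl10 replicate 1 the number called was 5 in place of 8, and over all genes 3308 in place of 4208. Chek1, the checkpoint kinase gene of the replication stress response, had log2 levels of 9.67, 9.80 and 9.80 in HA-Fbxl10 cells, against 9.03, 9.08 and 9.08 in control cells, a rise of 0.70 ± 0.07 (SE, limma adjusted p = 0.000111). It went to 0.38 after removal of the neighbour median (adjusted p = 0.00383). Ppp1r13b, whose product ASPP1 steers p53 to death genes, had levels of 5.19, 5.32 and 5.13 in HA-Fbxl10 cells, against 6.07, 5.90 and 6.03 in control cells, a fall with a log2 fold change of -0.78 ± 0.08 (adjusted p = 0.000142). Hipk2, a kinase gene that marks p53 under severe damage, rose by 0.41 ± 0.10 (adjusted p = 0.0183), a call that ended without HA-Fbxl10 replicate 1 (0.0585) or 3 (0.0626). Cdkn2a, the locus of the Mdm2 inhibitor ARF, fell by 0.35 ± 0.08 (adjusted p = 0.00942), and its change was -0.28 (0.0611) after removal of the neighbour median. Its probe set is annotated to transcripts of both ARF and p16.

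**Figure D5:**
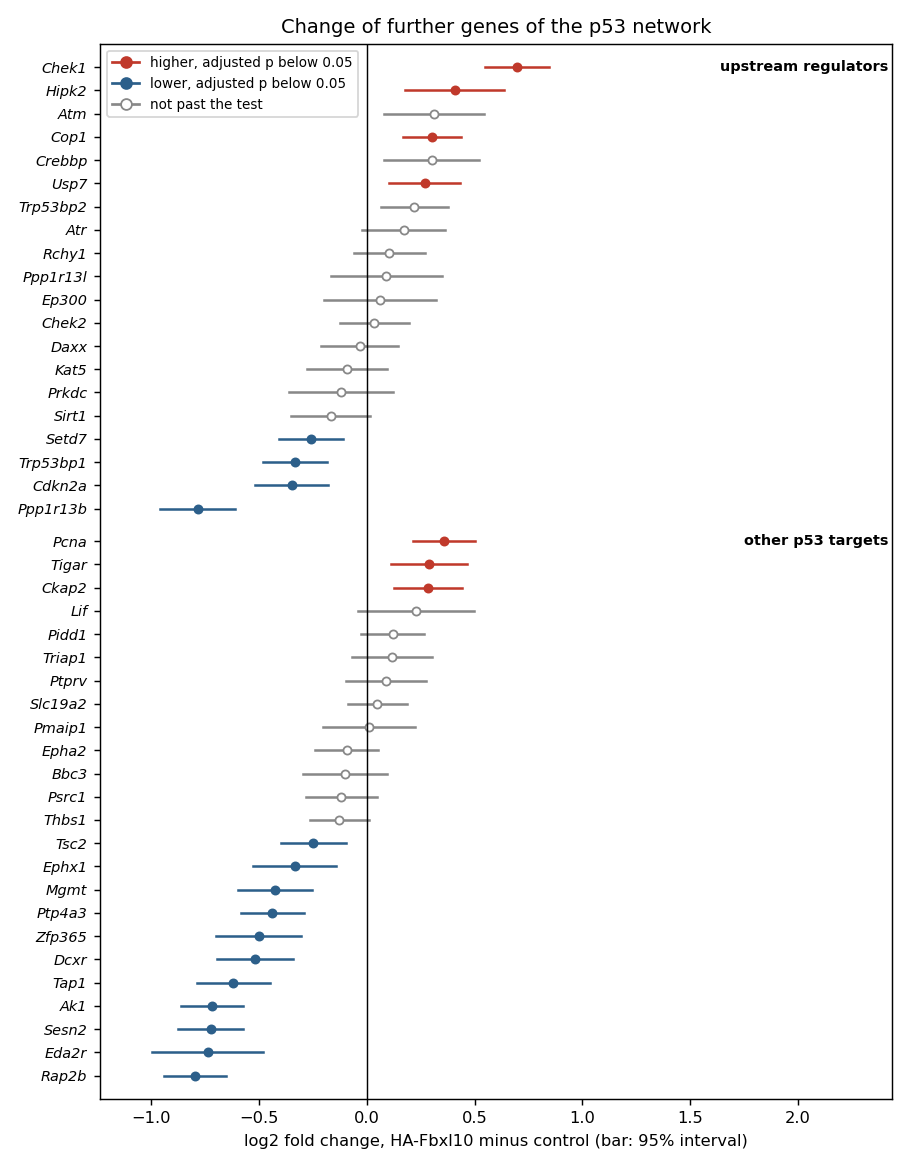
Log2 fold change of 20 upstream regulators of p53 and 24 further p53 targets, HA-Fbxl10 minus control, with 95% intervals from limma. The further targets range from -0.80 (Rap2b) to 0.36 (Pcna), with 11 filled points on the lower side and 3 on the higher side.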

How the data were processed

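Per the labels, 300 ng of total RNA from each of 3 HA-Fbxl10 and 3 control samples was labelled with biotin and hybridised to Affymetrix arrays. The deposited table gives log2 values per probe set, and the submitters' processing notes name RMA. Neither its version and settings nor a genome build is stated in the sources used here. RMA equalises the arrays' distributions, which hides a shift of most genes at once, and compresses low values. The values (1.72 to 13.9) were taken as they stand.

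The platform annotation gives a single gene for 21789 of 35556 probe sets, several for 1621, and leaves 12146 unnamed here. Through Entrez identifiers (21698) or accessions (3) symbols were brought to the RefSeq table of GRCm38.p6, while 88 stayed as annotated. Of several probe sets for a gene (1001 genes) the brightest on average was used, which gave 19936 genes. Coordinates of that table served only for gene order and promoter windows.

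Groups were compared in R 4.3.3 with limma 3.58.1 (two-sided, Benjamini-Hochberg over all genes). Fold changes are HA-Fbxl10 minus control, with moderated standard errors. Alternatives covered scaling, filtering, probe sets, the variance model, single arrays, pairing, and removal of chromosome or neighbour medians.

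The members, the other lists, the tests and the alternatives were chosen with earlier results of these data known. Every member is named, with values on each array for those past the threshold. From each other list 4 genes were taken by size of change, and any further gene named from it was chosen after its values were seen. Promoters were shown for the 3 largest falls and rises among members in the RefSeq table, and half-site matches were added. Trp53, Fdxr and some genes of the other lists are not reported here. Sequences and figures were handled in Python 3.11.15 with pandas 2.3.3 and matplotlib 3.10.9. No scan dates were at hand, so batch was not tested.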

Additional observations from a re-analysis of the deposited data

How the results depend on the processing

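Of the 18 called members, 10 kept their call under all 17 alternatives (8 lower, 2 higher): Perp, Sesn1, Trp53inp1, Zmat3, Cd82, Fas, Ddit4, Ccng2, Polk and Plk3. Some alternatives could not alter these values. No called member had more than 1 probe set, so averaging probe sets left each as it was. Removal of neighbour or chromosome medians left Perp as measured, since it lay below the median level. The number of members called lower, 11, ran from 9 to 11 without single arrays, and that called higher, 7, from 4 to 7. With an adjusted p of 0.01, 9 members were lower, 3 higher, 5 upstream regulators passed in place of 8, and 2536 genes in place of 4208. Over single omitted arrays the upstream count ran from 5 to 10 and the members' median log2 fold change from -0.122 to -0.0536, against -0.10 with all arrays. That median was -0.0504 after quantile normalisation and -0.0576 after subtraction of array medians. It was -0.0219 without the neighbour median and -0.0285 without chromosome medians. Removal of the neighbour median left 5 upstream regulators and 3136 genes in all. Removal of chromosome medians left 4 members higher and 3629 genes in all. The cause of these shifts was not tested, other than fewer samples or a stricter threshold by construction. The replicate number as a block gave 9 members lower and 6 higher, and 3397 genes in all. Same-numbered arrays did not deviate together (correlations 0.0851, -0.283 and -0.0934), and 1 of 6 arrays correlated best with its own number. Signs changed only for 3 members near 0. Gtse1 was at 0.0321 with array medians subtracted, 0.093 without the neighbour median, 0.0595 without chromosome medians, and from -0.0473 to 0.0287 over single omitted arrays, above 0 without HA-Fbxl10 replicate 1 (0.0241) or control replicate 3. Ppm1d was at -0.0196 with array weights and from -0.033 to 0.038 over single omitted arrays. Rprm ran from -0.0441 (without control replicate 3) to 0.156. A further 7 members passed only under some alternative. The table holds no detection calls, so the low levels of Trp63, Trp73, Sfn, Rprm and Eda2r cannot be told from background. The same holds for the levels of Perp on HA-Fbxl10 arrays.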
